A study of Mus musculus with 30 samples.

Results

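Motile cilium genes were taken from the table of ovarian gene levels by symbol. The rule kept every Dnah, Dnaic, Dnaaf, Cfap, Rsph, Drc or Tekt symbol followed by a digit, together with Ccdc39, Ccdc40 and Hydin, and left out Rsph3a and Rsph3b. It gave 58 of the 18022 genes listed. By textbook role they comprise 7 outer arm dynein genes, 13 inner arm dynein genes, 6 dynein assembly factors, 5 radial spoke genes, 5 genes of the nexin-dynein regulatory complex and the molecular ruler, 6 central pair genes, 9 tektins and other proteins inside the microtubules, and 7 others.

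The levels come from mRNA sequencing of whole ovaries of adult female CD1 mice, an outbred stock, in 30 libraries that form 10 groups of 3. Mice received a vehicle control, DEHP (di(2-ethylhexyl) phthalate) or DiNP (diisononyl phthalate) for 10 days, and ovaries were collected 0 or 3 months after the last dose. The groups at each time point were vehicle, DEHP at 20 ug/kg/day (DEHP 20), DEHP at 200 ug/kg/day (DEHP 200), DiNP at 20 ug/kg/day (DiNP 20) and DiNP at 100 ug/kg/day (DiNP 100). No genotype other than the stock is given, and every group, vehicle included, was dosed over the same 10 days. The labels do not say whether the 3 libraries of a group came from separate mice, so the p-values below measure only the spread between these libraries.

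A motile cilium is a hair-like extension of the cell built on a cylinder of paired microtubules, the axoneme. Outer and inner dynein arms are the motors that make neighbouring microtubule pairs slide, radial spokes and the central pair regulate them, and the nexin-dynein regulatory complex links the pairs so that sliding becomes bending. In the female tract such cilia are carried by the multiciliated cells of the oviduct epithelium, whose axonemal genes are switched on by the transcription factor Foxj1 together with RFX factors. The axonemes of sperm tails use many of the same proteins and some of their own, among them the outer arm heavy chains Dnah8 and Dnah17.

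RFX factors bind a sequence called the X-box, so the 250 bases before the start of the members' transcripts were searched for it. A RefSeq promoter sequence (GRCm38.p6) was matched to 50 of the 58 members. The X-box was searched as GTNNCC, any 2 bases and GGNAAC, its half-site as GTTGCC and the site of forkhead factors, the family of Foxj1, as GTAAACA, each on both strands; a half-site can lie inside an X-box. The X-box letters occurred in 4 of 50 members (8%), Cfap206, Cfap298, Dnaaf5 and Tekt4, against 1.55% of the 13788 genes of the table with such a sequence. Half-sites occurred in 19 of 50 members (38%) against 12.3% of those genes, and the forkhead letters in 3 of 50 (6%) against 2.98%. These are matches of letters and no test was made of them. The windows below, written 5′ to 3′ on the gene's strand and ending at the base before the start, show 3 of the 4 members with an X-box and 3 members with half-sites only. Capitals mark the X-box or half-site, which reads GGCAAC where the half-site lies on the opposite strand.
Cfap206 (chr4:34730207-34730456, minus strand): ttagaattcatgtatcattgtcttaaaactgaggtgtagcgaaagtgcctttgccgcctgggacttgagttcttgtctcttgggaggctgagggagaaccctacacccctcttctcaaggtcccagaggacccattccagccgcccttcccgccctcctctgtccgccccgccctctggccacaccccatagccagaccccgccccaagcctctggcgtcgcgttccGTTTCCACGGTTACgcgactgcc
Tekt4 (chr17:25471340-25471589, plus strand): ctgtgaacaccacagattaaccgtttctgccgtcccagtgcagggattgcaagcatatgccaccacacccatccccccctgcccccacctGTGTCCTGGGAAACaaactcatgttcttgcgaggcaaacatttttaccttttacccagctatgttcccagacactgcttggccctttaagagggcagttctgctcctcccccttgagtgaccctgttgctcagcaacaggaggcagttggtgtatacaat
Cfap298 (chr16:90934850-90935099, minus strand): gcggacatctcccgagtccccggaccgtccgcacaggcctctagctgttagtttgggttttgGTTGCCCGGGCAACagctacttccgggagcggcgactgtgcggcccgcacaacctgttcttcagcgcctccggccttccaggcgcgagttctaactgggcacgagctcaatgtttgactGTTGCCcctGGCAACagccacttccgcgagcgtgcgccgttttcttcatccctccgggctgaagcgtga
Cfap44 (chr16:44394549-44394798, plus strand): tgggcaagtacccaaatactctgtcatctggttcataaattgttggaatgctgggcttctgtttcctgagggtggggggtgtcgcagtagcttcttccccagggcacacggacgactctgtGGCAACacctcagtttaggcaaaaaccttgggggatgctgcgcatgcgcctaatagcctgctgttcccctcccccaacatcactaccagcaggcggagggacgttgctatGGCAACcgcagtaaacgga
Cfap161 (chr7:83794840-83795089, minus strand): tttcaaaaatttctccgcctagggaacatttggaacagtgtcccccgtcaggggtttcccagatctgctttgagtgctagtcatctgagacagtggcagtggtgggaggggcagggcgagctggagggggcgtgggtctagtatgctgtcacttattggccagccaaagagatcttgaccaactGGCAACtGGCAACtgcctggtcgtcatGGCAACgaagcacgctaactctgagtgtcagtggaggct
Hydin (chr8:110266727-110266976, plus strand): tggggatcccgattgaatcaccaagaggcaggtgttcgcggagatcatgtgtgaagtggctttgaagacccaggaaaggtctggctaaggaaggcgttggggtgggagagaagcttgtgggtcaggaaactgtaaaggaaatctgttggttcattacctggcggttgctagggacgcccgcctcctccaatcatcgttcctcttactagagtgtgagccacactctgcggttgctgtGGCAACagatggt
With the base before the start as position -1, the X-box of Cfap206, a radial spoke gene, spanned positions -23 to -10. It matches the searched letters on the opposite strand. The X-box of Tekt4, a tektin, spanned -160 to -147. Cfap298, an assembly factor, carried an X-box that reads the same way on both strands, GTTGCCCGGGCAAC, and 2 half-sites outside it. Cfap44, an inner arm gene, carried 2 half-sites, Cfap161, a protein inside the microtubules, 3, and Hydin, of the central pair, 1. The levels of these 6 genes are taken up below: all but Cfap298 were far higher in a pair of DEHP libraries than in any other library. Dnaaf5, the X-box member not shown, was not, so the windows shown lean towards members that were high there.

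Levels are log2 CPM, a gene's reads relative to a total for its library, on a log2 scale, as deposited. Back-transformed, the values did not sum to the same number in each library (907668 to 1164842). That total may therefore be scaled and need not equal the counted reads. They are not divided by transcript length, so levels are compared between libraries and not between genes. The deposited values contain a small added count that pulls low levels together, so differences of low genes are understated. A difference of 1 is 2-fold. The lowest value in the table, -3.34, is shared by all 30 libraries and is read here as a gene with no reads. The smallest steps between values put the library total behind them at about 25.0 to 37.6 M reads in 29 libraries. Read depth itself may differ from that total, and 1 library of DEHP 200 at 0 months gave no clear step. Libraries of the same group correlated across genes at r = 0.908 to 0.98, and no pair held identical values. As a check on the tissue label, granulosa cell markers had a median of 6.58 to 8.29 and oocyte markers 3.57 to 5.52 log2 CPM in 28 of the libraries. Not among these were replicate 2 of DEHP 20 and replicate 1 of DEHP 200 at 3 months. There the markers were somewhat lower. Their median difference from the 28 libraries was -0.71 and -0.27 for granulosa cells and -0.53 and -0.58 for oocytes. In bulk tissue, fewer cells of a type and less RNA per cell cannot be told apart.

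A pair of libraries stood apart for these genes, and the fold changes and tests of the DEHP groups at 3 months are therefore also given without them. The median level of the 58 members was 3.07 log2 CPM in replicate 2 of DEHP 20 at 3 months and 2.59 in replicate 1 of DEHP 200 at 3 months. In the other 28 libraries it ranged from -0.44 to 0.93, with a middle value of 0.02. The CPM of all 58 members summed to 705 and 549 in the pair, and to 260 to 339 in the others. In DEHP 20 at 3 months the member medians of replicates 1 and 3 were 0.64 and 0.79, and in DEHP 200 at 3 months those of replicates 2 and 3 were 0.48 and 0.79. The 3 vehicle libraries of that time point had -0.05, -0.37 and 0.26. So each of the 6 DEHP libraries at 3 months lay above each vehicle library, and 1 in each DEHP group lay far above the rest. The 6 DiNP libraries of the time point ranged from -0.44 to 0.32 and overlapped vehicle.

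**Figure D1:**
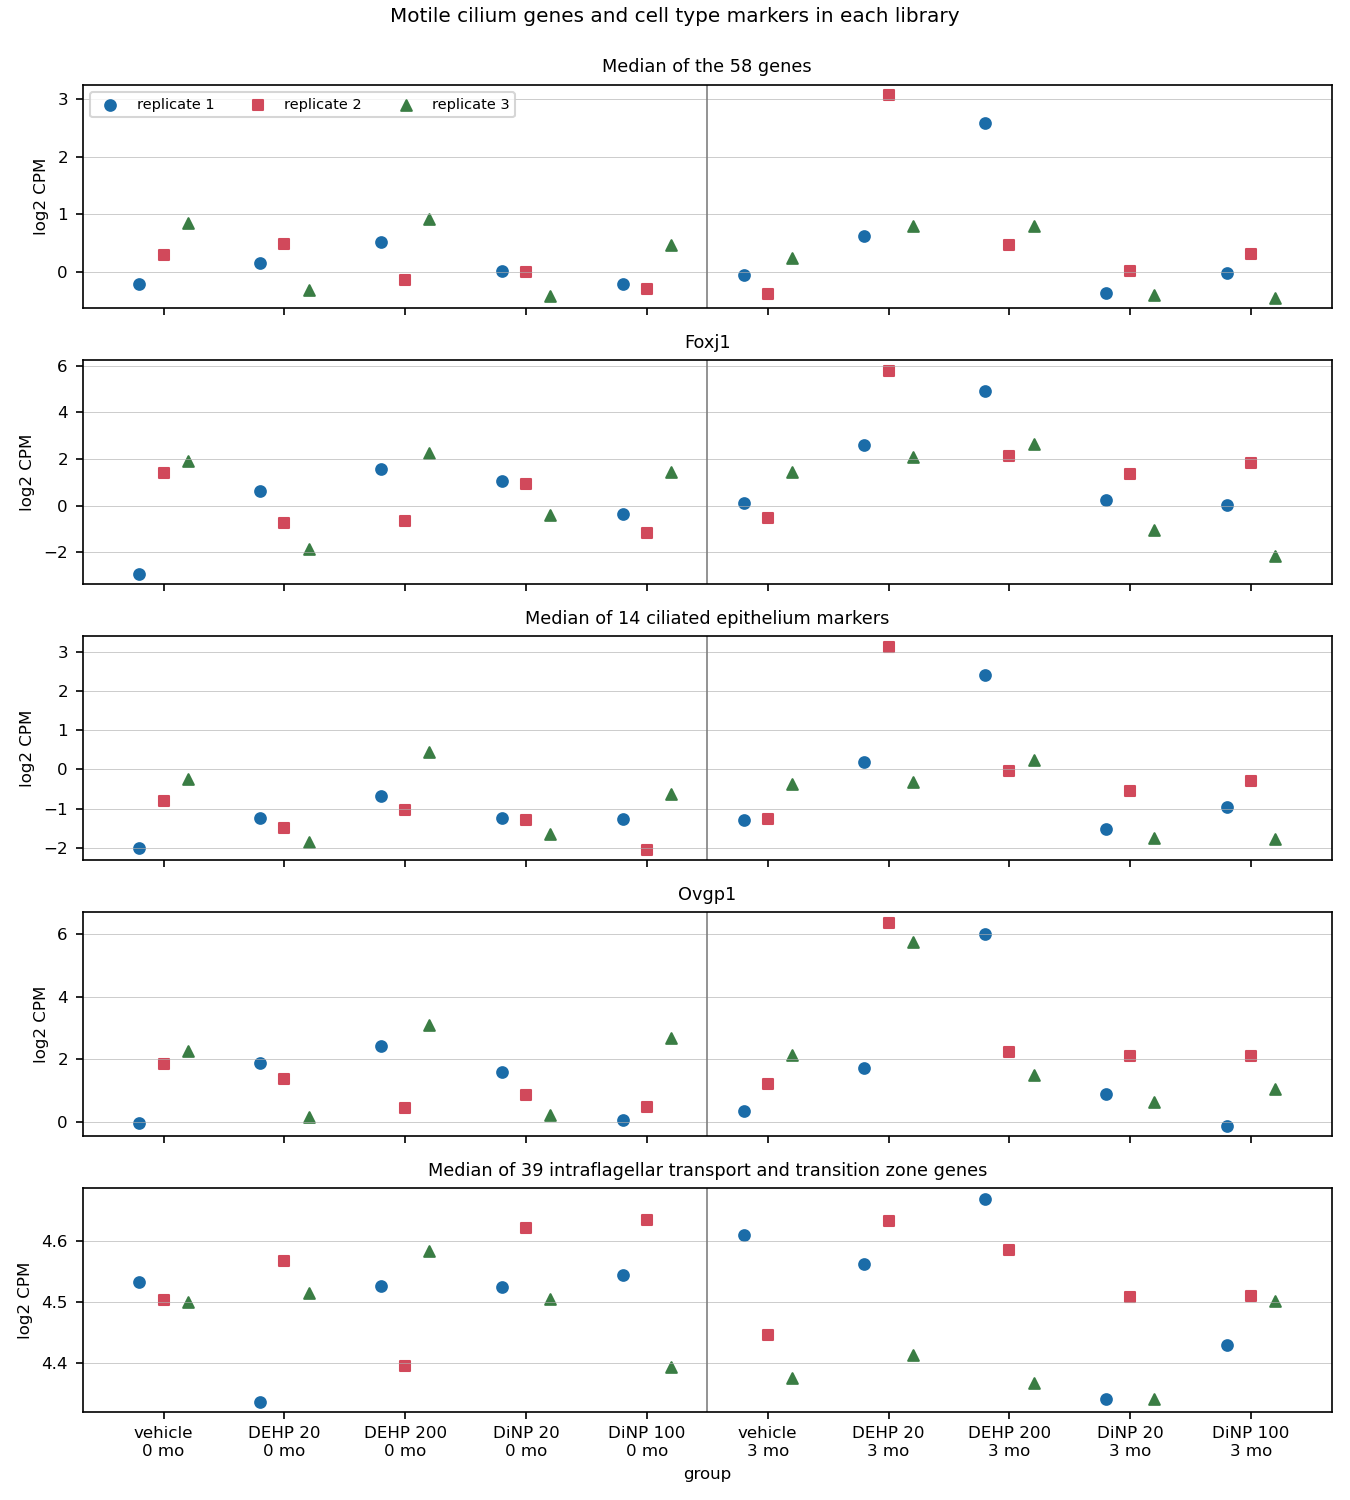
Level in each of 30 libraries (log2 CPM, vertical) by group (horizontal, mo is months after dosing), with symbols for replicates 1 to 3: the median of the 58 motile cilium genes, Foxj1, the median of 14 ciliated epithelium markers, Ovgp1, and the median of 39 intraflagellar transport and transition zone genes. The member median reaches 3.07 and 2.59 in 1 library of each DEHP group at 3 months and stays below 1 elsewhere, while the intraflagellar transport median spans a narrow range in all 30 libraries.

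Member by member, 43 of 58 were higher in both of these libraries than in each of the 28 others, against 1.95% of all 18022 genes. The pair was picked out by the levels of these same members, so such counts describe the pair and are no test. Replicate 2 of DEHP 20 exceeded all 28 for 45 members (3.45% of all genes) and replicate 1 of DEHP 200 for 43 (4.11% of all genes). The highest of all 30 values fell in the former for 43 members, in the latter for 2 and elsewhere for 13. Among the 43, the difference from the median of the 28 other libraries ran from 0.81 to 6.14 in the DEHP 20 library and from 0.67 to 5.07 in the DEHP 200 library. It was larger in the DEHP 20 library for 41 of the 43, by a median of 0.62. Across the 58 members the differences of the pair were ordered alike (Pearson r = 0.982, Spearman rho = 0.983), a description over genes that share both libraries and one reference median. The library totals of the pair, read from the steps between values, were 31.3 and 27.6 M reads and lay within the range of the others.

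**Figure D2:**
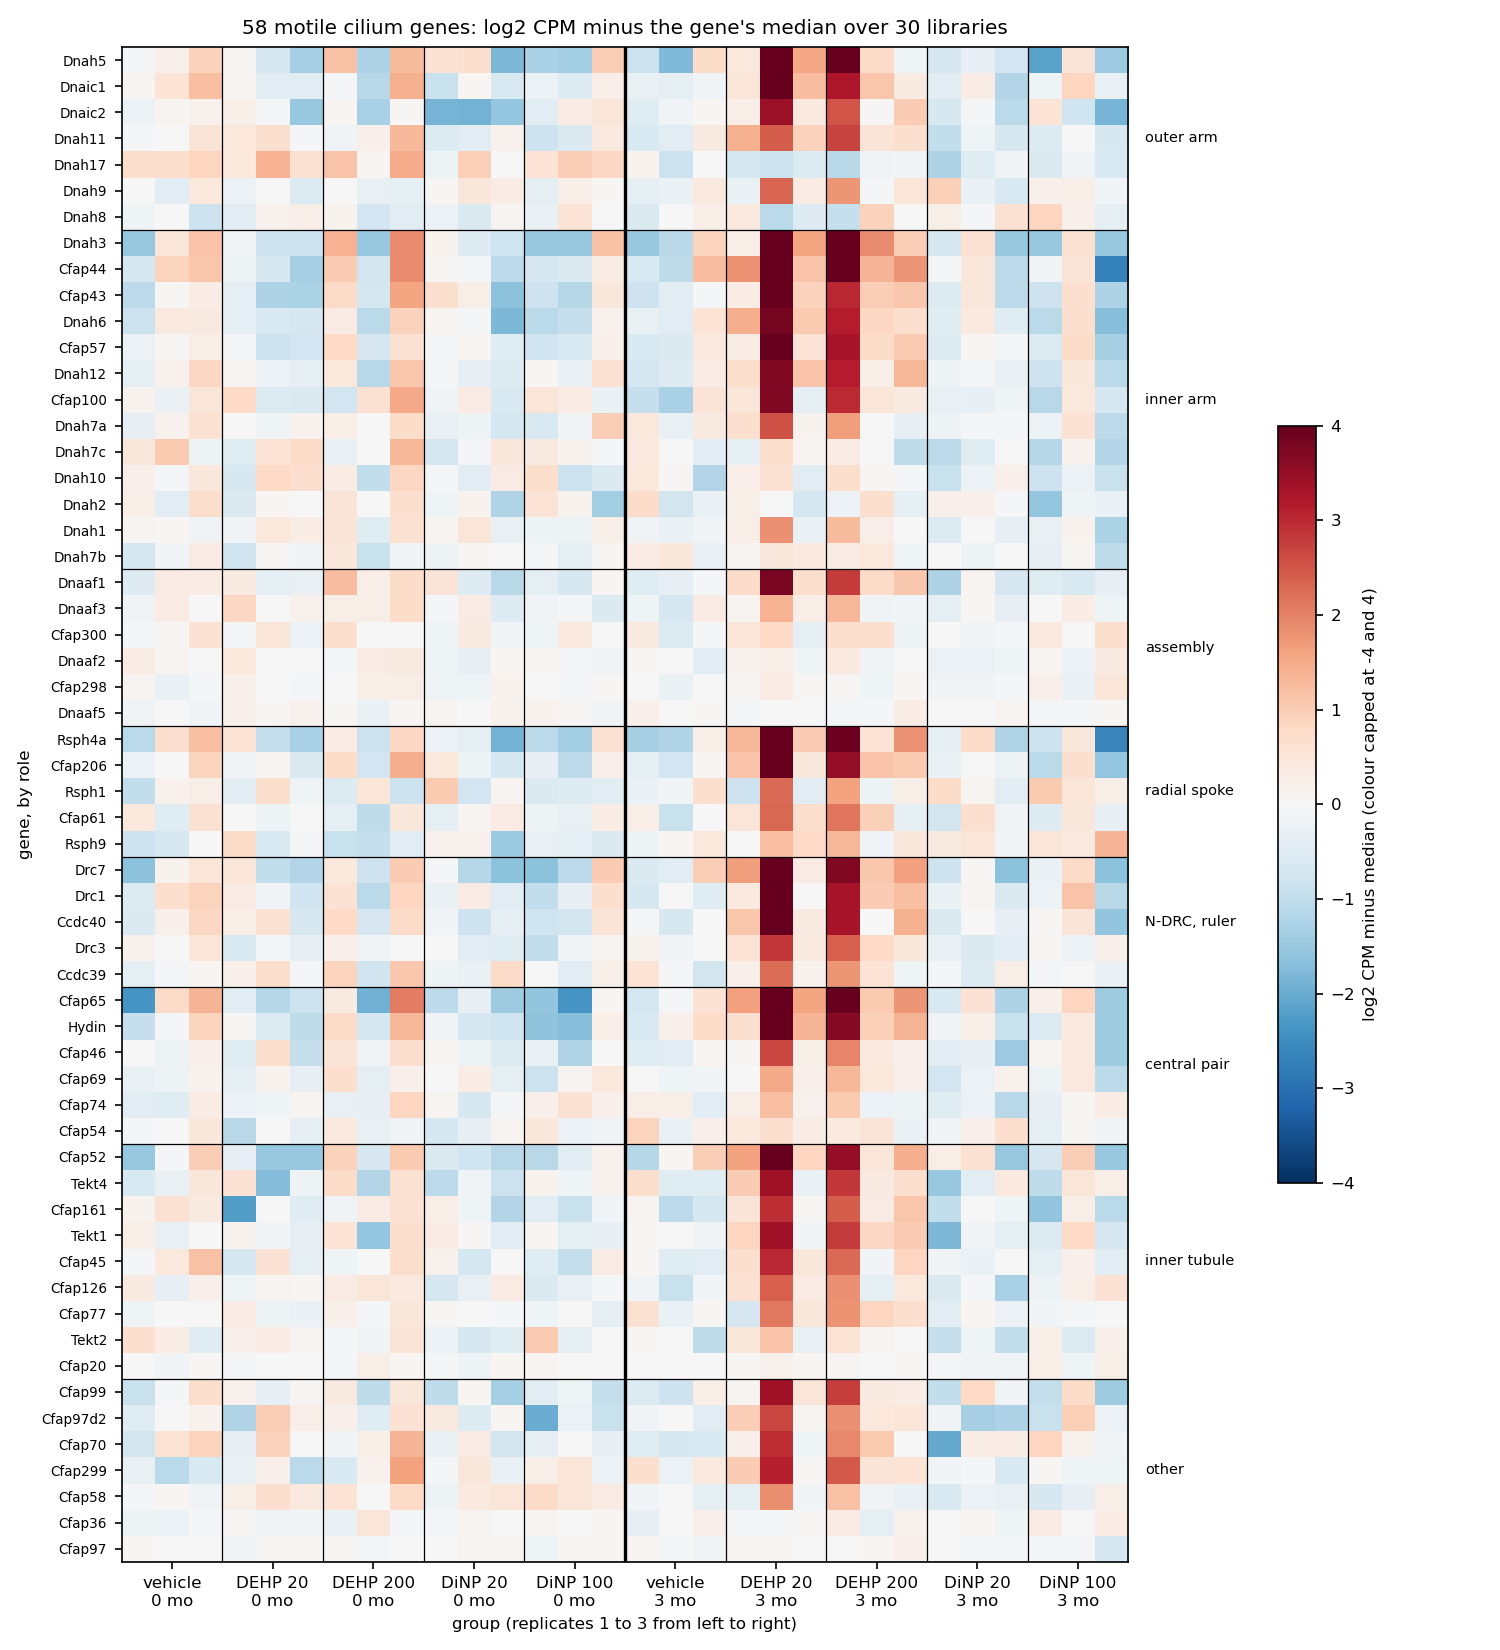
Log2 CPM of each of the 58 genes (rows, ordered by role and then by spread) in each of the 30 libraries (columns, 3 per group), shown as the difference from that gene's median over all libraries. Red is higher and blue lower, with the colour scale capped at 4; the 2 red columns are replicate 2 of DEHP 20 and replicate 1 of DEHP 200 at 3 months.

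The outer arm heavy chain Dnah5 (Entrez 110082, chromosome 15, 28154854 to 28472045, GRCm38.p6) had the largest difference in both. Its level was 5.69 log2 CPM in the DEHP 20 library and 4.63 in the DEHP 200 library, and -2.46 to 1.22 in the 28 others. The other outer arm genes that stood out in both were Dnah9 and Dnah11, further heavy chains, and Dnaic1 and Dnaic2, intermediate chains that hold the arm together, which makes 5 of 7. Dnaic1 stood at 2.68 and 1.5 against -2.92 to -0.33 elsewhere, and Dnah9 at 4.51 and 3.97 against 1.58 to 3.14. The exceptions were Dnah8 and Dnah17, the heavy chains known from sperm. Dnah8 was lower there than in any other library, at 2.23 and 2.38 against 2.46 to 4.23. Dnah17 stood at -0.40 and -0.62, within the range of the others, -0.75 to 1.96.

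Of the 13 inner arm genes 9 stood out in both libraries. Dnah3, a heavy chain, was at 3.5 and 2.69 there, and between -3.34 and 0.08 elsewhere, with no reads in 8 of the 30 libraries. Cfap44, which with Cfap43 tethers an inner arm to the microtubule, was at 4.25 and 4.5 against -2.73 to 1.84. Cfap44 and Dnah11 were the 2 members that peaked in the DEHP 200 library. Dnah2, Dnah10 and Dnah7c stood out in neither, and Dnah7b only in the DEHP 20 library. Dnah7a, Dnah7b and Dnah7c are near-identical copies whose reads the counting may have split between them, so their separate values are uncertain.

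Radial spoke genes stood out in 4 of 5 cases. Rsph4a, a component of the spoke head (Entrez 212892, chromosome 10, 33905111 to 33916021), was at 4.12 and 3.22 against -3.34 to 1.09 in the others. Rsph1, also of the spoke head, was at 5.10 and 4.47 against 1.86 to 3.91. Rsph9, the remaining spoke head gene, was the exception and is described with the time points. All 5 genes of the nexin-dynein regulatory complex and ruler stood out. Drc1, which anchors that complex, was at 3.38 and 2.04 against -2.38 to -0.07, and Ccdc39, a component of the ruler that spaces the structures along the microtubule, was at 3.72 and 3.28 against 0.70 to 2.58.

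Central pair genes stood out in 5 of 6 cases, with Cfap54 the exception. Hydin, a giant protein of the central pair whose promoter is shown above, was at 3.81 and 3.10 against -2.24 to 0.82. Among the tektins and other proteins inside the microtubules 7 of 9 stood out in both. Tekt1 was at 2.75 and 2.16 against -2.43 to 0.39, while Tekt2 stood out only in the DEHP 20 library and Cfap20 in neither. Of the 7 genes without an assigned role 5 stood out, and Cfap36 and Cfap97 did not.

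Dynein assembly factors act in the cytoplasm before the arms are carried into the cilium, and 3 of 6 stood out. Dnaaf1, Dnaaf3 and Cfap300 did, Dnaaf1 at 2.55 and 1.56 against -2.49 to -0.03. Dnaaf2, Dnaaf5 and Cfap298 did not. Cfap298, with the X-box shown above, stayed between 3.89 and 4.67 in all 30 libraries, 4.5 and 4.22 in the pair. Of the other members whose windows are shown, Cfap206, Tekt4 and Cfap161 peaked at 2.83, 2.30 and 2.46 in the DEHP 20 library. Outside the pair they reached at most 0.25, -0.09 and 0.64. Half-sites were as follows in the members with a promoter sequence: 12 of the 37 that stood out in both libraries (32.4%) and 7 of the other 13 (53.9%). The X-box occurred in 2 of the 37 (5.4%) and 2 of the 13 (15.4%), the forkhead letters in 1 (2.7%) and 2 (15.4%).

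**Figure D3:**
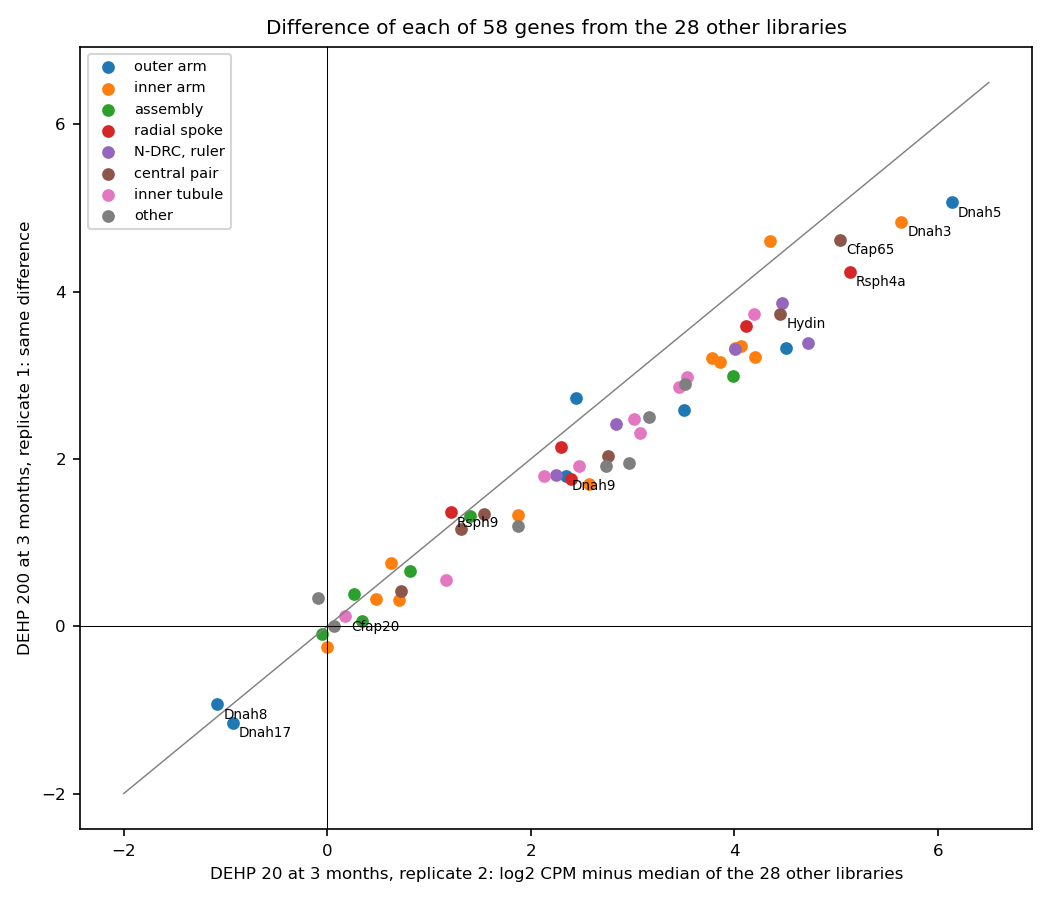
Difference of each of the 58 genes from its median in the 28 other libraries (log2 CPM), in replicate 2 of DEHP 20 (horizontal) and replicate 1 of DEHP 200 (vertical) at 3 months, coloured by role, with the line of equality. Dnah5, Dnah3 and Rsph4a lie farthest out and Dnah8 and Dnah17 below 0, and 51 of the 58 points lie below the line.

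Other gene lists were read in the same libraries. Of 14 markers of ciliated epithelium 13 exceeded all 28 other libraries in both, the exception being Mlf1. Sntn, a protein of the ciliary tip, stood at 3.02 and 2.32 against -3.34 to -0.35. The summed CPM of the 14 was 183 and 106, against 23.0 to 56.3 in the others. Of 34 axonemal genes outside the rule 25 stood out in both, and 1 of them, Dynlrb2, is also among the ciliated epithelium markers. Of 11 regulators of multiciliated cells 5 did so: Foxj1, Myb, Trp73, Deup1 and Ccdc78. Foxj1 was at 5.78 and 4.91 against -2.91 to 2.63. Of 39 genes of intraflagellar transport and the transition zone, which primary cilia also need, 0 stood out in both, against 1.95% of all genes. In the DEHP 20 library alone 4 exceeded all 28 (10.3%, against 3.45% of all genes). The DEHP 200 library did so for 3 (7.69%, against 4.11%).

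Markers of secretory cells of the oviduct moved in part with the members, and their part in the result was not tested. Of 12 such markers 5 exceeded all 28 libraries in both, and the summed CPM was 165 and 128 against 25.8 to 98.8. Ovgp1, the oviduct-specific glycoprotein, stood at 6.35 and 6.0. It stood at 5.75 in replicate 3 of DEHP 20 at 3 months as well, where the member median was 0.79 and Foxj1 2.11, and at -0.10 to 3.10 in the remaining 27 libraries. Of 13 markers of ovarian surface epithelium 1 stood out in both, and of the oocyte, granulosa, luteal, theca and macrophage lists 0, against 1.95% of all genes.

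The comparisons with vehicle ask whether either phthalate left a difference in these genes directly after dosing or 3 months later. Genes with a mean level above 0 log2 CPM were tested with limma, which kept 35 of the 58 members and 14740 of all genes. The other 23 members, among them Dnah5, Hydin, Rsph4a, Dnaic1, Drc1 and Tekt1, were too low for that filter, and all 58 were also fitted without a filter. Of the 35, 6 passed through the pair of high libraries: Ccdc40, Cfap45, Cfap46, Cfap58, Dnah12 and Tekt2 averaged 0.01 to 0.23 over all 30 libraries and -0.15 to -0.01 over the 28 others. Counts are therefore also given over the other 29. Treated groups of a time point share its 3 vehicle libraries, so their comparisons are not independent of each other.

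At 3 months DEHP 20 had higher levels than vehicle for most members, but with a spread that left 0 of 35 past an adjusted p of 0.05 (limma, Benjamini-Hochberg; 0% of 14740 genes). At an unadjusted p under 0.05, 11 of 35 members were higher and 0 lower, against 1.23% and 0.448% of genes, and 7 of the 11 were among the other 29. The median log2 fold change of the 35 was 0.61, and 0.17 without replicate 2. Of the 58 members without the filter 53 had a fold change above 0, with a median log2 fold change of 1.31 against 0.01 over all genes. All 3 DEHP 20 libraries lay above all 3 vehicle libraries for 20 members (3.73% of all genes), and below for 0 (2.71%). Without replicate 2 of DEHP 20, 51 of 58 still had a fold change above 0 and the median was 0.44. An unadjusted p under 0.05 then held for 1 member, and 0 passed after adjustment. Among the 35 tested members it held for 1 higher and 0 lower (0.76% and 0.353% of genes). With libraries weighted by their estimated variance (array weights) 20 of 35 passed here and 13 of 35 for DEHP 200. That estimate did not converge and gave 1 vehicle library, replicate 2 at 3 months, a weight of 35.1. The share of all genes that passed with these weights is not given here, so the counts are not read as a result about the members.

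Dnah11, an outer arm heavy chain (Entrez 13411, chromosome 12, 117877982 to 118199043), had the smallest p of the 35. Its vehicle libraries at 3 months were at 0.03, 0.23 and 1.01 log2 CPM. The DEHP 20 libraries were at 2.06, 3.07 and 1.57, all above vehicle. The log2 fold change was 1.81 ± 0.50 (SE, 95% interval 0.78 to 2.84, limma adjusted p = 1), and it was 1.40 without replicate 2.

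Ccdc40, the partner of Ccdc39 in the ruler, was at -0.05, -0.63 and 0.00 in vehicle and at 1.12, 4.01 and 0.37 in DEHP 20. The groups did not overlap, although replicate 3 lay close to vehicle. Its log2 fold change of 2.06 ± 0.78 (limma adjusted p = 1) was 0.98 without replicate 2. Rsph4a, below the filter, was at -2.05, -1.90 and -0.48 in vehicle and at 0.63, 4.12 and 0.30 in DEHP 20. Again no treated library fell to the vehicle range, and the log2 fold change of 3.16 ± 0.99 (limma without the filter, adjusted p = 1) was 1.94 without replicate 2. Rsph1 went the other way: vehicle at 2.58, 2.75 and 3.52, DEHP 20 at 2.03, 5.10 and 2.38. Only replicate 2 was high, and the log2 fold change of 0.22 turned to -0.75 without it.

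DEHP 200 at 3 months gave a similar picture. Of the 35 tested members 0 passed (0% of genes, limma), and 9 were higher and 0 lower at an unadjusted p under 0.05 (0.95% and 0.488% of genes), 6 of the 9 among the other 29. The median log2 fold change of the 35 was 0.47, and 0.27 without replicate 1. Of all 58 members 54 had a fold change above 0, with a median of 1.11. The groups did not overlap, DEHP 200 higher, for 25 members (3.58% of all genes), and lower for 0 (2.67%). Without replicate 1, 50 of 58 had a fold change above 0, the median was 0.59, and 0 members reached an unadjusted p under 0.05. Among the 35 tested members that count was also 0 in either direction (0.536% of genes higher, 0.482% lower). Dnah11 was at 3.35, 1.18 and 1.29, above the vehicle values given above, with a log2 fold change of 1.52 ± 0.50 (limma adjusted p = 1), 0.81 without replicate 1. Cfap44 was at -0.65, -1.05 and 1.19 in vehicle and at 4.5, 1.33 and 1.73 in DEHP 200, which do not overlap. Its log2 fold change was 2.69 ± 0.93 (limma adjusted p = 1), and 1.70 without replicate 1. Dnah5 overlapped: vehicle at -1.18, -2.08 and 0.40, DEHP 200 at 4.63, 0.42 and -0.51, with replicate 3 below a vehicle library.

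The remaining DEHP libraries also lay above vehicle for many members. Counting members above all 3 vehicle libraries at 3 months gave 35, 51 and 27 of 58 for replicates 1 to 3 of DEHP 20 and 50, 32 and 36 for those of DEHP 200. The same count over all genes was 19 to 24.6% in these 6 libraries. It gave 2, 12 and 3 members for DiNP 20 (19.1, 19.7 and 21.6% of all genes) and 13, 23 and 12 for DiNP 100 (26.8, 17.3 and 33.9%). Replicate 2 of DiNP 100, with 23 of 58 against 17.3% of all genes, thus also had more members above vehicle than genes at large. Below all 3 vehicle libraries at 3 months were 19, 6 and 22 of 58 members for DiNP 20 (20.8, 19.8 and 21.4% of all genes). For DiNP 100 these were 17, 6 and 25 (26.5, 17.3 and 33%). At 0 months the count was 38 in replicate 3 of DEHP 200 (35.6% of all genes) and 6 to 19 in the other 11 treated libraries (22 to 34.7%). Below all 3 vehicle libraries of that time point were 2 to 28 members per treated library, 28 in replicate 3 of DiNP 20 (27.5% of all genes). Replicate 3 of DEHP 200 at 0 months also had the highest member median of the 28 libraries, 0.93.

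**Figure D4:**
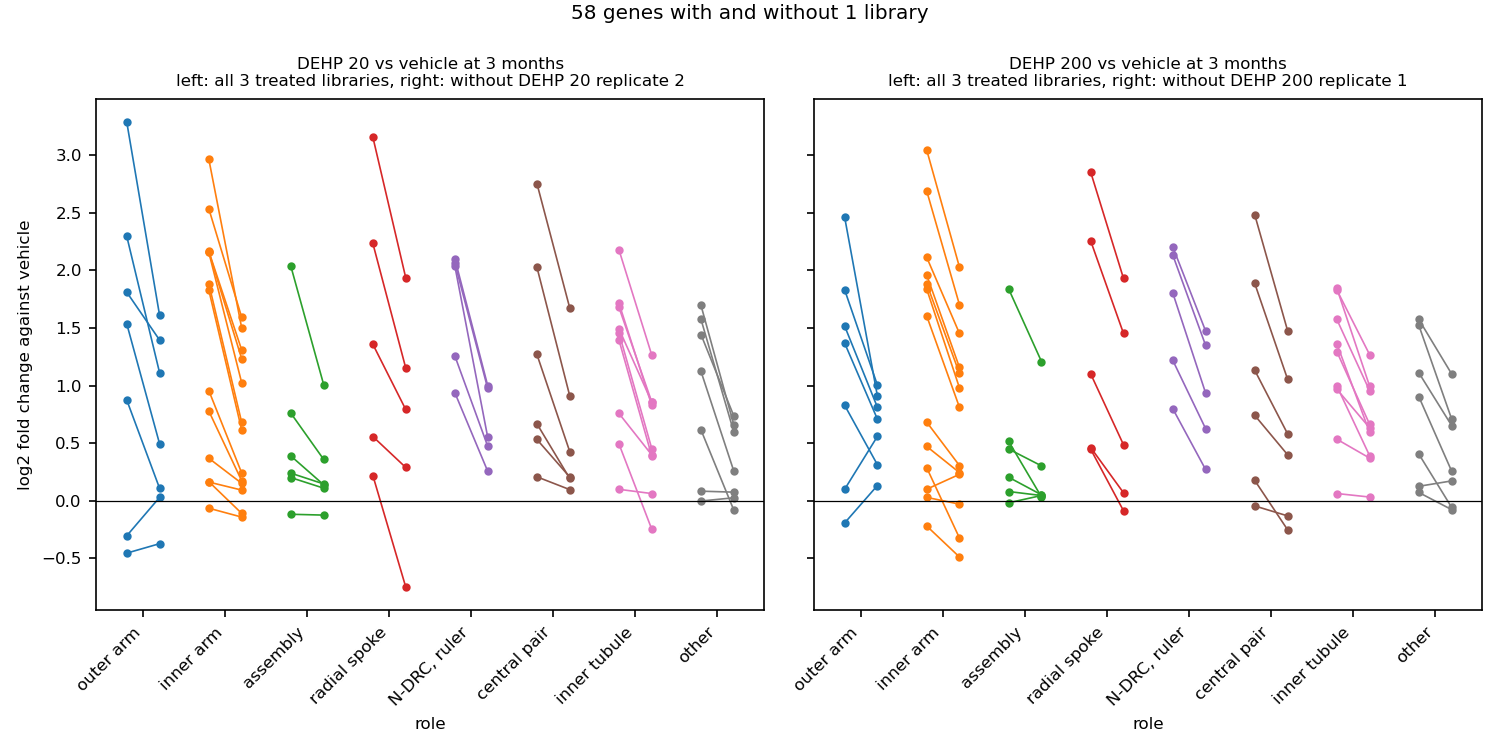
Log2 fold change of each of the 58 genes against vehicle at 3 months (vertical) by role (horizontal), for DEHP 20 on the left and DEHP 200 on the right, with all 3 treated libraries and without the 1 library with the highest member median, joined by lines. Most lines fall towards 0 without it, and the medians go from 1.31 to 0.44 and from 1.11 to 0.59.

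Axonemal genes outside the rule were fitted too, as a list without members that was also chosen with earlier results of these data known. Its filter used the mean over all libraries, the high pair included, so the list is no independent support for the members. For DEHP 20 at 3 months 0 of the 19 above the filter passed in either direction, 17 had a fold change above 0 and the median was 0.81; without replicate 2 these were 16 and 0.34. For DEHP 200 it was 0 of 19, 16 and 0.65, and without replicate 1 14 had a fold change above 0 with a median of 0.19. Foxj1 had a log2 fold change of 3.16 ± 1.24 in DEHP 20 (limma adjusted p = 1) and 2.89 ± 1.24 in DEHP 200 (limma adjusted p = 1). Without the high library of each group these were 2.01 and 2.05 (limma adjusted p = 1 for both).

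DiNP at 3 months gave no such upward shift. With DiNP 20, 0 of 35 members passed (0% of genes, limma), 0 reached an unadjusted p under 0.05 (0.814% of genes higher, 0.706% lower), and 20 of 58 had a fold change above 0 with a median of -0.08. Its libraries lay wholly above vehicle for 0 members (3.12% of all genes) and wholly below for 3 (3.41%). With DiNP 100 the counts were 0 of 35 (0% of genes, limma), 0 at an unadjusted p under 0.05 (4.37% of genes higher, 4.91% lower), and 19 of 58 with a median of -0.11. Wholly above vehicle was 1 member (2.89%) and wholly below 0 (3.36%). In the DiNP 20 libraries Dnah11 stood at -0.33, 0.49 and 0.00 and in those of DiNP 100 at 0.13, 0.66 and 0.00, which overlap vehicle.

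The compounds were compared at the dose they share, 20 ug/kg/day, at each time point. Both are diesters of phthalic acid and differ in the branched alcohol chains, 2-ethylhexyl in DEHP and isononyl in DiNP. At 3 months 0 of 35 members passed (0% of genes, limma), while 17 were higher in DEHP 20 and 0 lower at an unadjusted p under 0.05 (1.88% and 1.02% of genes). Of the 17, 12 were among the other 29, and without replicate 2 of DEHP 20 the count was 3 higher and 0 lower (1.38% and 1.47% of genes). The median log2 difference of the 35 was 0.81, and 0.30 without that library. The median log2 difference over all 58 was 1.5, and 0.63 without replicate 2 of DEHP 20. The groups did not overlap for 31 members, DEHP 20 higher, and for 0 in the other direction (5.53% and 4.03% of all genes). Dnah11 differed by 2.18 ± 0.50 (95% interval 1.15 to 3.21, limma adjusted p = 0.832), and by 1.76 without that library.

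Cfap126, a microtubule-associated protein, differed by 1.76 ± 0.48 (95% interval 0.77 to 2.75, limma adjusted p = 1), and by 1.12 without replicate 2. Its DEHP 20 libraries were at 1.68, 3.46 and 1.41 and its DiNP 20 libraries at 0.50, 0.99 and -0.23, with no overlap. At 0 months 0 of 35 passed (0% of genes, limma). At an unadjusted p under 0.05 the count was 0 (1.08% of genes higher, 0.97% lower), and the median over 58 was 0.06. No overlap was seen for 3 members with DEHP 20 higher and 1 with it lower (5.03% and 4.36% of all genes). The higher doses differ between the compounds and were not compared; side by side, the median of the 58 members against vehicle at 3 months was 1.11 for DEHP 200 and -0.11 for DiNP 100.

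Directly after dosing, at 0 months, 0 of 35 members passed in any of the 4 comparisons with vehicle (0% of genes in each, limma). An unadjusted p under 0.05 held for Dnaaf5 in DEHP 20, with a log2 fold change of 0.23 ± 0.11 (1.16% of genes), and for Dnaic2 in DiNP 20, with -1.79 ± 0.72 (1.2% of genes). Over all 58 the median log2 fold change was -0.14 for DEHP 20 and 0.17 at its higher dose, and for DiNP 20 and DiNP 100 it was -0.34 and -0.25. A fold change above 0 was found for 20 and 38 of 58 members with the lower and higher dose of DEHP, and for 17 with either dose of DiNP, which left 41 below 0. Wholly above vehicle were 2, 0, 1 and 3 members in the same order (4.8, 4.14, 4.9 and 3.95% of all genes) and wholly below 3, 0, 3 and 1 (4.7, 4.07, 4.81 and 4.6%). Dnaic2 was at 0.22, 0.55 and 0.64 in vehicle and at -1.40, -1.45 and -1.11 in DiNP 20, wholly below.

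Whether a treatment's difference from vehicle itself changed between the time points was tested as an interaction. For each of the 4 treatments 0 of 35 members passed (0% of genes in each, limma). At an unadjusted p under 0.05, 7 members had a larger DEHP 20 difference at 3 months and 1 a smaller one (1.29% and 0.672% of genes). Of the 7, 5 were among the 29 members above the filter in the 28 other libraries. Without replicate 2 of DEHP 20 at 3 months the counts were 2 and 1 (0.841% and 0.794% of genes). Cfap44 had the largest, 3.70 ± 1.31 (limma adjusted p = 1), and 2.75 with neither high library. For DEHP 200 the count was 1, Drc3 (1.57% of genes). Without replicate 1 of that group at 3 months it was 0 (1.64% of genes larger, 1.23% smaller). For both DiNP doses it was 0 (0.916% larger and 0.57% smaller for DiNP 20, 0.977% and 1.35% for DiNP 100).

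**Figure D5:**
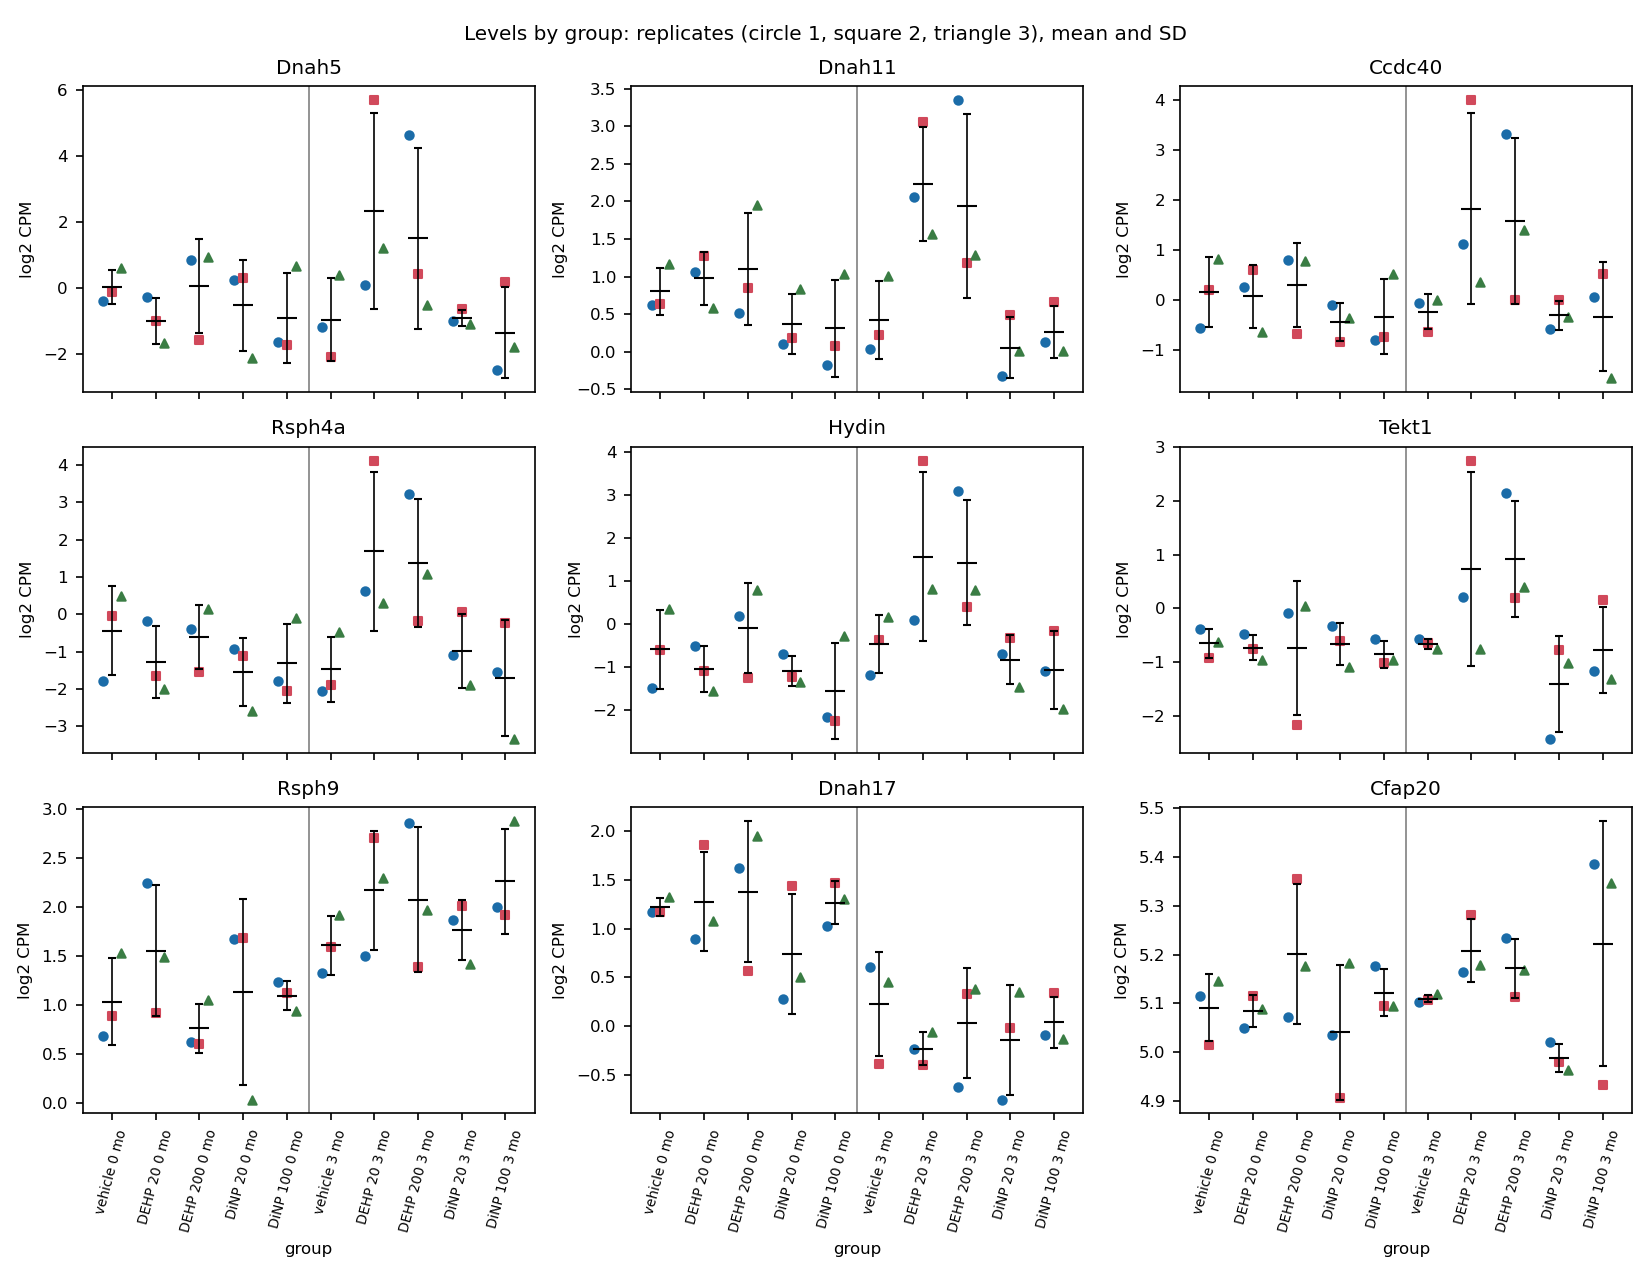
Log2 CPM of 9 members (vertical) by group (horizontal, mo is months after dosing), with symbols for replicates 1 to 3 and the mean and SD of each group (n = 3) in black; the vertical line separates 0 from 3 months. Dnah5, Dnah11, Ccdc40, Rsph4a, Hydin and Tekt1 have 1 far higher library in each DEHP group at 3 months, Rsph9 is higher and Dnah17 lower at 3 months across groups, and Cfap20 varies little.

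Members passed the test in the comparison of the time points. With all 5 groups together, 15 libraries a time point, 2 of 35 members passed, 1 higher and 1 lower at 3 months (limma; 10.6% and 9.63% of genes, 20.3% together). Dnah17 (Entrez 69926, chromosome 11, 118021723 to 118130719) ranged from 0.28 to 1.96 at 0 months with a median of 1.17 and from -0.75 to 0.60 at 3 months with a median of -0.06. At 3 months 9 of 15 libraries lay below every library of 0 months. It fell by 1.19 ± 0.17 on the log2 scale (SE, limma adjusted p = 0.000172), and its mean was lower at 3 months in each of the 5 groups. Without the filter Cfap65 passed too, higher by 1.48 ± 0.48 (limma adjusted p = 0.0343), with 2 of 15 libraries at 3 months above every library of 0 months. Those were the pair of high DEHP libraries, and with neither of them its difference was 1.07 ± 0.43 (limma adjusted p = 0.11). Cfap58 had a log2 fold change of -0.33 with all libraries (limma adjusted p = 0.234) and passed without the pair, with -0.56 ± 0.12 (limma adjusted p = 0.00792); it is named after its values were seen.

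In vehicle Dnah17 was at 1.17, 1.17 and 1.33 at 0 months and at 0.60, -0.39 and 0.46 at 3 months, with no overlap. That comparison of vehicle alone gave -1.0 ± 0.39 (limma adjusted p = 0.603). Oocyte and granulosa cell markers fell over the same interval, 13 of 15 and 9 of 10 past the same threshold with limma, and 8 of 8 macrophage markers rose. Their part in the change of Dnah17 was not tested.

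Rsph9 (Entrez 75564, chromosome 17, 46122038 to 46144242) moved the other way, from 0.03 to 2.25 at 0 months, median 1.05, to 1.32 to 2.88 at 3 months, median 1.92. The ranges overlap, and 4 of 15 libraries at 3 months exceeded every library of 0 months. It rose by 0.86 ± 0.19 (limma adjusted p = 0.0047), and by 0.73 with neither of the high DEHP libraries (limma adjusted p = 0.0191). In vehicle it was at 0.68, 0.88 and 1.53 and then at 1.32, 1.59 and 1.92, which overlap. In vehicle alone 0 of 35 members passed (0.00678% of genes, limma), 18 of 58 had a fold change above 0 and the median was -0.20. Without overlap 1 member was higher and 3 lower at 3 months (7.06% and 7.36% of all genes).

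Over all 30 libraries the members varied more than most genes. Their SD had a median of 0.81 log2 units against 0.31 for all genes, and 0.61 against 0.31 in the 28 libraries. Dnah5 had the largest SD, 1.78, and Cfap20, which seals the inner junction of the microtubule pair, the smallest, 0.12. No reads were found for 6 members in at least 1 library, 23 values in all. Those values fell on Cfap52, Cfap65, Cfap299, Dnah3, Drc7 and Rsph4a. At 0 months 4 fell in DEHP, 5 in DiNP and 5 in vehicle libraries. At 3 months 0 fell in the 6 DEHP libraries, 1, of Dnah3, in vehicle and 8 in DiNP libraries. Of those 8, 3 lay in replicate 3 of DiNP 20 and 4 in replicate 3 of DiNP 100. In that last library 1.04% of all genes had no reads, the highest share of the 30, against 0.472 to 0.927% in the others.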

How the data were processed

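Members and gene lists were chosen with earlier results of these data known. The authors deposited 1 table of log2 CPM for 18022 genes and 30 libraries; per the submitters' processing notes, FastQC 0.11.8, Salmon 0.11.3, edgeR and R 3.5.2 were used with GRCm38.p6, and their roles are not given in the sources used here. Libraries were stranded mRNA preparations of RNA from flash-frozen ovaries, per the labels' protocols. Values were used as deposited. Whole read counts were not recovered, so no count test was run, and library totals were read from the steps between values. Genes averaging above 0 log2 CPM entered limma (version 3.58.1, with R 4.3.3; statmod was at 1.5.0). The model held every group's mean, all 30 libraries sharing one variance estimate per gene, shrunk along a trend with level (20 residual and 2.85 prior degrees of freedom). Adjusted p-values are Benjamini-Hochberg over all genes of a comparison. A gene passed under 0.05. The fit was tested on simulated data with independent noise and the same shift in every library of a group. That setting differs from a difference carried mostly by 1 library, so the test does not cover it. Named members were those that passed, the 2 smallest p in each direction per comparison, the highest and most variable of each role, and a panel of 14 (Ccdc39, Ccdc40, Hydin, Dnah5, Dnah9, Dnah11, Dnaic1, Dnaaf1, Rsph1, Rsph4a, Drc1, Tekt1, Cfap43, Cfap52). Others were named after their values were seen. Alternatives were median centring, quantile normalization, other filters, 1 CPM added, no trend, array weights, a replicate block (numbers did not pair libraries), each time point alone, an adjusted p under 0.10 and leaving out each library; leaving out the high DEHP libraries, together or each from its own comparison, and counting members by their mean over the 28 others were added after seeing the data. Mcidas, Gmnc, Cdc20b, Ccdc67, Spag6, Meig1, Ccdc113 and Krt23, from the lists, were not matched in the table. Positions and promoters are from RefSeq (GRCm38.p6).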

Additional observations from a re-analysis of the deposited data

Results flagged for a closer look

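Dnaic1 and Drc3 differed from vehicle in opposite directions at 0 and at 3 months. The 3 DEHP 20 and the 3 vehicle libraries did not overlap at either. At 0 months DEHP 20 lay wholly below vehicle for 3 of 58 members and for 4.7% of all genes, so that side is near the share of genes at large. At 3 months it lay wholly above for 20 of 58 members and for 3.73% of all genes. How many of all genes meet both conditions was not counted. Dnaic1, an outer arm intermediate chain, had a log2 fold change of -0.89 at 0 months and 2.30 at 3 months. Its vehicle libraries were at -1.628, -1.20 and -0.53 and its DEHP 20 libraries at -1.633, -2.19 and -2.19 at 0 months, so the nearest libraries were almost level. At 3 months vehicle was at -2.04, -2.08 and -1.86 and DEHP 20 at -1.25, 2.68 and -0.51. The difference between the time points was 3.18 ± 1.10 (SE, limma without the filter on low levels, adjusted p = 1). Without replicate 2 of DEHP 20 at 3 months, the 3-month fold change was 1.11 and the difference 2.0 ± 0.92 (limma adjusted p = 1). Drc3, of the nexin-dynein regulatory complex, had -0.55 at 0 months and 1.26 at 3 months, with vehicle at 1.05, 0.94 and 1.40 and DEHP 20 at 0.30, 0.86 and 0.60 at 0 months. At 3 months vehicle was at 1.07, 0.78 and 0.90 and DEHP 20 at 1.47, 3.74 and 1.32. The difference between the time points was 1.80 ± 0.67 (SE, limma adjusted p = 1). Without the same library these were 0.47 and 1.02 ± 0.53 (limma adjusted p = 1). Neither difference passed the adjustment over all genes.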

How the results depend on the processing

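Of 1905 values under alternatives, 1860 were counted as unchanged. For the fold change of a gene that meant the same direction and side of the threshold. A count of members that passed had to stay equal or within 1.5-fold. A median fold change had to move by less than 0.66, the SD of the member median within groups. It could therefore shrink or turn direction and still count as unchanged. Array weights, whose estimate did not converge, ran from 0.0049 to 35.1. With them 20 members passed for DEHP 20 and 13 for DEHP 200 against vehicle at 3 months. For vehicle over time 6 passed and for the DEHP 20 interaction 10, each 0 otherwise. The share of all genes that passed with these weights is not given, so these counts cannot be set against genes at large. For all groups over time, 2 members passed, and 4 after quantile normalization, 5 at an adjusted p under 0.10, 0 with a filter of mean log2 CPM above 2, below which both genes lie, and 2 to 4 when single libraries were left out, 4 without replicate 3 of DEHP 20 at 3 months. Setting aside both high DEHP libraries, chosen after seeing the data, left 3. The cause of these changes was not tested. Shares of all genes under these settings are not given, so these counts cannot be set against genes at large either. Direction turned, for log2 fold changes that had not passed, with array weights in Cfap36 (-0.0033, DEHP 200 at 0 months), Dnah17 (0.0783 for DEHP 20 and 0.37 for DEHP 200 at 3 months) and Cfap298 (0.12, DEHP 200 interaction). With single libraries left out it ran from -0.0103 to 0.36 for Cfap36 and -0.65 to 0.0483 for Dnaic2 (DEHP 200 at 0 months), -0.75 to 0.79 for Rsph1 (DEHP 20 at 3 months), -0.0876 to 0.83 for Rsph1, -0.50 to 0.13 for Dnah17 and -0.49 to 0.17 for Dnah7c (DEHP 200 at 3 months), -0.12 to 0.61 for Dnah2 (DiNP 20 at 3 months) and -0.40 to 0.0256 for Dnah7b (DEHP 20 against DiNP 20 at 0 months). With neither high library Rsph1 (-0.75 and -0.0876) and Dnah17 (0.13, DEHP 200) turned too. Without the filter on low levels the median log2 fold change of the members at 3 months was 1.31 for DEHP 20 against vehicle, 1.5 for DEHP 20 against DiNP 20 and 1.49 for the DEHP 20 interaction, over 58 members, against 0.61, 0.81 and 0.50 over 35. Same-numbered libraries did not deviate together (mean r = -0.02 at 0 months and -0.04 at 3 months), so replicate numbers do not pair them; with the replicate block 0 members passed in each treated-against-vehicle comparison and 2 over time, as without it. Depth limits the 23 members below the filter in the libraries where they are low.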
